A study of Mus musculus with 4 samples.

Results

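The 38 genes described here encode chromatin and transcription regulators that have been linked to autism, and they were taken by name from the 4 deposited tables of UMI counts (counts of unique molecular identifiers, one per captured transcript molecule). They are 38 of the 29281 genes listed in any of the tables, and each of the 4 tables lists all 38. The rule that lists them uses no measured value, though the list was made with earlier results of these data known. By role they fall into 7 chromatin remodellers and their partners, 9 histone methyltransferases and SET domain proteins, 2 histone demethylases, 10 chromatin readers and cofactors, 4 sequence-specific transcription factors, and 6 genes of the Mediator, cohesin, ubiquitin and kinase systems.

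The prefrontal cortex (PFC) of female C57BL/6J mice with no treatment or engineered allele was dissociated and profiled as single cells on the BD Rhapsody platform at postnatal day 1 (P1), P4, P10 and in adult (P84). Each age was represented by 1 library from 2 mice by the methods, and the cells were not assigned to mice here. Every difference between ages is therefore a difference between 2 libraries with no replicate check, and the intervals given below cover counting error only. The tissue was dissociated with actinomycin D, an inhibitor of transcription, and the headers of the files name pipeline version 1.11 for P1 and version 1.8 for the other 3 libraries, while the methods name version 1.11 for all. The change from P4 to adult is therefore reported first, and P1 is kept apart.

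Genes of this kind act on how tightly DNA is packed and on which genes RNA polymerase can reach. Methyltransferases such as KMT2A and EHMT1 place methyl groups on histone tails, demethylases such as KDM6B remove them, remodellers such as the CHD proteins and the BAF complex move nucleosomes with energy from ATP, and corepressors such as the NCoR complex, which contains TBL1XR1, bring deacetylases to bound repressors. In the developing cortex such genes are known for their part in neuronal differentiation and wiring, and heterozygous loss of many of them causes human neurodevelopmental syndromes.

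After filtering, 11545 (P1), 19014 (P4), 15272 (P10) and 14087 cells (adult) remained, with median depths of 11065 to 25800 UMIs per cell. Clusters were called by markers as intratelencephalic (IT)-like, L5 pyramidal tract (PT)-like and L6 corticothalamic (CT)-like excitatory neurons, inhibitory-like neurons (MGE and CGE interneuron-like), astrocyte-like, oligodendrocyte precursor (OPC)-like, oligodendrocyte-like and microglia-like cells, among others, and 12.8% to 22.5% of cells stayed unnamed. The IT-like class mixes layers and held, in order of age from P4, 4917, 3456 and 2896 cells, with 5195, 4179 and 3049.8 CPM (counts per 1000000 UMIs of the class) summed over its 8 markers. The P1 library held 37194 UMIs of 4 Y-linked genes (120.4 CPM) against 31 to 34 UMIs in the others, which goes against the female sex given in the methods for the P1 mice and sets that library further apart. Levels below are in CPM of the UMIs summed over the cells of a class, mitochondrial and ribosomal protein genes left out.

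The members' promoters were looked at first, because some of the encoded proteins bind or act on promoters rich in the dinucleotide CG. RefSeq promoter sequences on GRCm38.p6 were matched for 25 of the 38 genes (36 windows), and each window of 200 bases ended 51 bases before an annotated transcription start. The median window of the members held 13.5 CG dinucleotides, and the median of all 32851 windows held 4. At least 1 window with 10 CG or more was present for 19 of the 25 matched members and for 31.5% of all genes in the table, and 29.3% of all single windows held as many. This background was not limited by expression level, while the shares of all genes given below use genes of at least 10 CPM. No exon annotation overlapped the 4 windows printed here, which show 2 members with a falling course (Ehmt1, Bcl11a) and 2 that were higher in adult than at P10 (Tbl1xr1, Kmt2a), among members with a single start in the table. CG dinucleotides are in capitals, read 5′ to 3′ on the gene's strand.
Ehmt1, chr2:24919660-24919859, minus strand, 17 CG: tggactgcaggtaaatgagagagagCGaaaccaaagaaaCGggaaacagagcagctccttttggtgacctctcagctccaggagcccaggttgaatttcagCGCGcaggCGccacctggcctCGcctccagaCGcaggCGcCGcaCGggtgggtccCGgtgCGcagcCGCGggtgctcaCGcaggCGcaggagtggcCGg
Bcl11a, chr11:24080445-24080644, plus strand, 9 CG: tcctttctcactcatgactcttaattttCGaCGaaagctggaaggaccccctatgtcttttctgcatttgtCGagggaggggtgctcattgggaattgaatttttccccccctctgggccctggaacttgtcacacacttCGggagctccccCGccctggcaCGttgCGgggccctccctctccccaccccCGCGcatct
Tbl1xr1, chr3:22076402-22076601, plus strand, 10 CG: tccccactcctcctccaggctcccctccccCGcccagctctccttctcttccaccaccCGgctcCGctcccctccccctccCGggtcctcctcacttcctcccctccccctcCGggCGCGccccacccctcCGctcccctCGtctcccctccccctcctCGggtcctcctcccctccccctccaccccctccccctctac
Kmt2a, chr9:44881340-44881539, minus strand, 25 CG: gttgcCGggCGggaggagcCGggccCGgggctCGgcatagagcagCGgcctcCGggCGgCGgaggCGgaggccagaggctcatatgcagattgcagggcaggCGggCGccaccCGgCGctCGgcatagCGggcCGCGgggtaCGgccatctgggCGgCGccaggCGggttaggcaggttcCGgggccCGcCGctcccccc
As many CG as in Kmt2a or more were found in 4.83% of all windows, and the corresponding share was 14% for Ehmt1, 29.3% for Tbl1xr1 and 32.1% for Bcl11a. The Bcl11a window lies inside the gene's GENCODE M21 span, which begins at chr11:24078056, upstream of the RefSeq start used here. In these 4 windows each kind of course included a member with more and a member with fewer CG. A link between CG and course was not tested.

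From P4 to adult, most of the 38 genes were lower in IT-like cells, and the loss was unequal among them. Asxl3 and Kdm6b were the members with the largest loss, Ehmt1, Bcl11a, Auts2, Myt1l and Setbp1 were also at least 2-fold lower, and Tbl1xr1 was the single member at least 2-fold higher. Of the 36 members with a mean of at least 10 CPM over both ages, 29 had a ratio below 1 and 7 a ratio above 1, with a median log2 ratio of -0.40 against -0.15 for all 9077 genes above that minimum. The share with a ratio below 1 was 56.5% among all genes. The 7 members at least 2-fold lower stand against 18.5% of all genes and the 1 at least 2-fold higher against 15.3%, so the share of members with a large loss was near that of all genes. At 1.5-fold, 15 members were lower and 3 higher (all genes 31.5% and 23.8%). The remaining 2 members, Adnp and Chd7, were under 10 CPM in this class. Markers of other cell types moved with age in the same cells, since astrocyte markers summed to 112, 649 and 990.1 CPM, oligodendrocyte markers to 56.4, 62.9 and 187 CPM and OPC markers to 209, 32.2 and 13.1 CPM, and in L6 CT-like cells astrocyte markers went from 193 to 2192 CPM. Their part in the members' ratios was not tested.

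Asxl3, which encodes a cofactor of the Polycomb deubiquitinase BAP1, stood at 95.9 CPM (93.7 to 98.2) at P4, 27 CPM (25.9 to 28.1) at P10 and 12.1 CPM (11.2 to 13.1) in adult IT-like cells, where each range is an exact 95% Poisson interval. The log2 ratio of adult to P4 was -2.98 (-3.10 to -2.87), or 7.90-fold lower, and the level was lower at each later age. Kdm6b, the H3K27 demethylase gene (chr11:69398508-69413675, minus strand, GRCm38), had 61.1 CPM (59.3 to 62.9), 23.7 CPM (22.7 to 24.7) and 10.1 CPM (9.33 to 11) in the same order. Its log2 ratio was -2.59 (-2.72 to -2.46), a 6.02-fold loss that was again spread over both steps. The use of strand in counting is not given in the sources used here, so reads of Kdm6b and of the antisense gene Kdm6bos cannot be told apart where their exons overlap.

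Ehmt1, the H3K9 methyltransferase gene whose promoter is printed above, was at 73.1 CPM (71.1 to 75.1) at P4, 39.4 CPM (38 to 40.7) at P10 and 27.5 CPM (26.1 to 28.9) in adult. The log2 ratio was -1.41 (-1.50 to -1.33), and no pair of intervals overlapped. Bcl11a, a zinc finger factor of cortical projection neurons, had 256 CPM (252 to 259), 183 CPM (180.1 to 186) and 114 CPM (111 to 116), with a log2 ratio of -1.17 (-1.21 to -1.13). Auts2, an activator that associates with Polycomb complex PRC1, followed another course. It was at 317 CPM (313 to 321) at P4, 95.8 CPM (93.8 to 97.9) at P10 and 144 CPM (140.5 to 147) in adult, so its lowest level was at P10, and the log2 ratio of adult to P4 was -1.14 (-1.18 to -1.11). Myt1l, a repressor of non-neuronal genes, was at 865, 586 and 413 CPM (log2 ratio -1.07, -1.09 to -1.04), and Setbp1, which encodes a SET-binding protein, at 105, 64.4 and 50.4 CPM (log2 ratio -1.06). Both were just past 2-fold, and Setbp1 ended just short of it with median-of-ratios scaling, which took its call. The members next outside were Kdm5b at 1.84-fold and Tcf4 at 1.83-fold lower. Bcl11a and Auts2 depended on which cells were called IT-like. With finer clustering of each library (Leiden resolution 1.0) their log2 ratios of adult to P4 were -1.82 and -1.86, while Kdm5b, Tcf4 and Kmt5b then passed 2-fold.

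The 5 members with the largest gain from P4 to adult were Tbl1xr1, Ash1l, Mbd5, Tcf20 and Trip12. Tbl1xr1, a subunit of the NCoR and SMRT corepressors, was at 49.6 CPM (48 to 51.3) at P4, 48.3 CPM (46.8 to 49.8) at P10 and 100.5 CPM (97.9 to 103) in adult. Its log2 ratio of adult to P4 was 1.02 (0.96 to 1.08). The P4 and P10 levels were close, and the gain lay between P10 and adult. This gene sat at the 2-fold limit: taking the mean of per-cell CPM, or counting as IT-like a P4 cluster led by Ntf3 and Aldh1a3 (an alternative chosen after seeing the data), left 0 members at least 2-fold higher. At Leiden resolution 1.0, a finer clustering that left 1 P4 cluster as IT-like, Tbl1xr1 was at 0.59 and the 1 member past 2-fold higher was Foxp1. Ash1l, an H3K36 methyltransferase gene, was at 169.7, 154 and 264 CPM at P4, P10 and adult, with a log2 ratio of 0.64 (0.60 to 0.67). Mbd5, a methyl-CpG-binding domain protein gene, was at 37.3, 44.7 and 57.1 CPM (0.62, 0.54 to 0.69), the 1 member that was higher at each of these ages than at the one before. Tcf20, a transcriptional coregulator gene, had 82, 65.2 and 99.9 CPM (0.28), and Trip12, a HECT ubiquitin ligase gene, 142, 122 and 173 CPM (0.28). Both were lower at P10 than at either neighbouring age. Kmt2a and Ankrd11 had ratios above 1 as well (log2 0.15 and 0.11), and Kmt2a, Ankrd11 and Tcf20 were each below 1 in 1 alternative setting.

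Split at P10, the 2 steps differed. From P4 to P10, 35 of 36 members were lower in IT-like cells (all genes 56.2%), with a median log2 ratio of -0.43 against -0.09 for all genes, and Mbd5 was the exception. Only Asxl3, Auts2 and Kdm6b passed 2-fold lower (all genes 6.68%) and 0 passed 2-fold higher (all genes 7.03%). Most losses at this step were thus under 2-fold, although at Leiden resolution 1.0 7 members were at least 2-fold lower and 1 higher (all genes 11.9% and 10.7% in that setting). From P10 to adult, 18 members were lower and 18 higher in IT-like cells (all genes 53.4% lower), with a median of 0.00 against -0.05. Asxl3 and Kdm6b were at least 2-fold lower (all genes 7.60%), and Kmt2a and Tbl1xr1 at least 2-fold higher (all genes 7.91%). At that finer resolution 0 members were at least 2-fold higher in this step, so both of these calls ended (all genes 7.92%). Kmt2a, the H3K4 methyltransferase gene of the mixed-lineage leukaemia locus, went from 216 CPM (213 to 219.7) at P4 to 113 CPM (111 to 115) at P10 and 240.3 CPM (236 to 244) in adult, so that its P10 level was 1.91-fold lower than at P4 and the adult level 2.12-fold higher than at P10. The median from P10 to adult differed by class. It was 0.25 in L5 PT-like (all genes 0.04), 0.11 in L6 CT-like (-0.06), -0.07 in inhibitory-like (-0.03) and -0.28 in OPC-like cells (-0.10).

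By role, no remodeller above 10 CPM in IT-like cells changed by 2-fold there from P4 to adult. Chd8 was at 119.6, 90.3 and 90.9 CPM at P4, P10 and adult (log2 ratio of adult to P4 -0.40), the BAF subunit gene Arid1b at 72.9, 59.2 and 67.1 CPM (-0.12), and Pogz, which encodes an HP1-binding zinc finger protein, at 51.8, 39.5 and 37.8 CPM (-0.45). Chd3, a helicase gene of the NuRD complex, was at 309, 254 and 204 CPM (-0.60), the largest loss among these genes. Chd2 was at 59.4, 44.4 and 56.9 CPM (-0.06), but its exons share 2628 bases with 1810026B05Rik on the same strand in the GENCODE M21 annotation, and no table lists that gene, so its counts are uncertain. Adnp had between 17 and 112 UMIs in IT-like cells of any library, and 4393 of its 5350 exonic bases lie within the same-strand gene Gm20716, which the P1 table lists at 281 UMIs and the other tables do not list. No level of Adnp is interpreted for that reason.

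Among the 9 methyltransferase and SET domain genes, Ehmt1 was the one that lost most, followed by the H4K20 methyltransferase gene Kmt5b (103, 64.2 and 56.6 CPM at P4, P10 and adult, log2 ratio -0.87). The H3K36 methyltransferase gene Setd2 (-0.71), Kmt2e (-0.67) and the H3K4 methyltransferase gene Kmt2c (-0.54) had intermediate ratios, and the H3K36 methyltransferase gene Nsd1 (-0.36) and Setd5 (-0.35) smaller ones. Ash1l and Kmt2a were the members of this group with ratios above 1, though Kmt2a had a log2 ratio of -0.18 at Leiden resolution 1.0. Of the H3K36 methyltransferase genes, Ash1l had a ratio above 1, and Setd2 and Nsd1 had ratios below 1. Both demethylase genes were lower in adult, with Kdm6b given above and the H3K4 demethylase gene Kdm5b at 137, 70.2 and 74.8 CPM (-0.88). The whole loss of Kdm5b had been reached by P10.

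Readers and cofactors held the widest range of ratios, from Asxl3 to Tbl1xr1. Phf21a, a PHD finger gene of the LSD1-CoREST complex, was at 54.4, 31.2 and 35.1 CPM (-0.63), Phf12 of the Sin3 complex at 51.2, 35.7 and 45.3 CPM (-0.18), and Rai1, whose product is related to TCF20, at 92.5, 78.2 and 77.2 CPM (-0.26). Ankrd11 stayed between 122 and 142 CPM from P4 on. All 4 sequence-specific factors had ratios below 1: besides Bcl11a and Myt1l, Tcf4, a bHLH E protein gene, was at 1126, 756 and 614 CPM (-0.87), and the forkhead gene Foxp1 at 317, 233 and 239.7 CPM (-0.40). Foxp1 depended on which cells were called IT-like, and its log2 ratio was 1.95 at Leiden resolution 1.0.

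In the last group, Nipbl, which encodes the loader of the cohesin ring, was at 120.4, 76.4 and 70.3 CPM (-0.78). Apart from Trip12, given above, the other members of this group had ratios closer to 1, namely the Mediator kinase module gene Med13l (-0.06), the ubiquitin ligase scaffold gene Cul3 (-0.19), the dual specificity kinase gene Dyrk1a (-0.25) and Wac (-0.12), an adaptor of histone H2B ubiquitination. Cul3 was at 341, 309.8 and 299.7 CPM and Wac at 169, 159 and 156 CPM, so these were among the steadiest members.

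The same courses were then followed in 5 neuronal classes (IT-like, L5 PT-like, L6 CT-like, MGE and CGE interneuron-like). These classes come from the same library at each age, so they are not independent replicates. From P4 to P10, 33 of 36 members were lower in all 5 classes (all genes 41.7%) and 0 were higher in all 5 (all genes 25.4%). From P10 to adult, 7 members were lower in all 5 (all genes 33.9%), namely Ehmt1, Bcl11a, Kdm6b, Kmt2e, Setd2, Setbp1 and Asxl3. In the same step 11 were higher in all 5 (all genes 30.0%), namely Kmt2a, Ash1l, Tbl1xr1, Med13l, Trip12, Mbd5, Chd2, Ankrd11, Tcf20, Kmt2c and Phf12. Kmt2a was at its lowest at P10 in every one of them, with log2 ratios of -1.03 to -0.90 up to P10 and of 0.85 to 1.56 after it. In L5 PT-like cells it was at 148, 79 and 233 CPM, and in MGE interneuron-like cells at 318, 156 and 308 CPM. Over the whole interval from P4 to adult, 23 members were lower in all 5 classes (all genes 41.9%), and 4, Tbl1xr1, Mbd5, Ash1l and Trip12, were higher in all 5 (all genes 29%). In inhibitory-like cells as a whole Trip12 changed sign in an alternative setting.

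**Figure D1:**
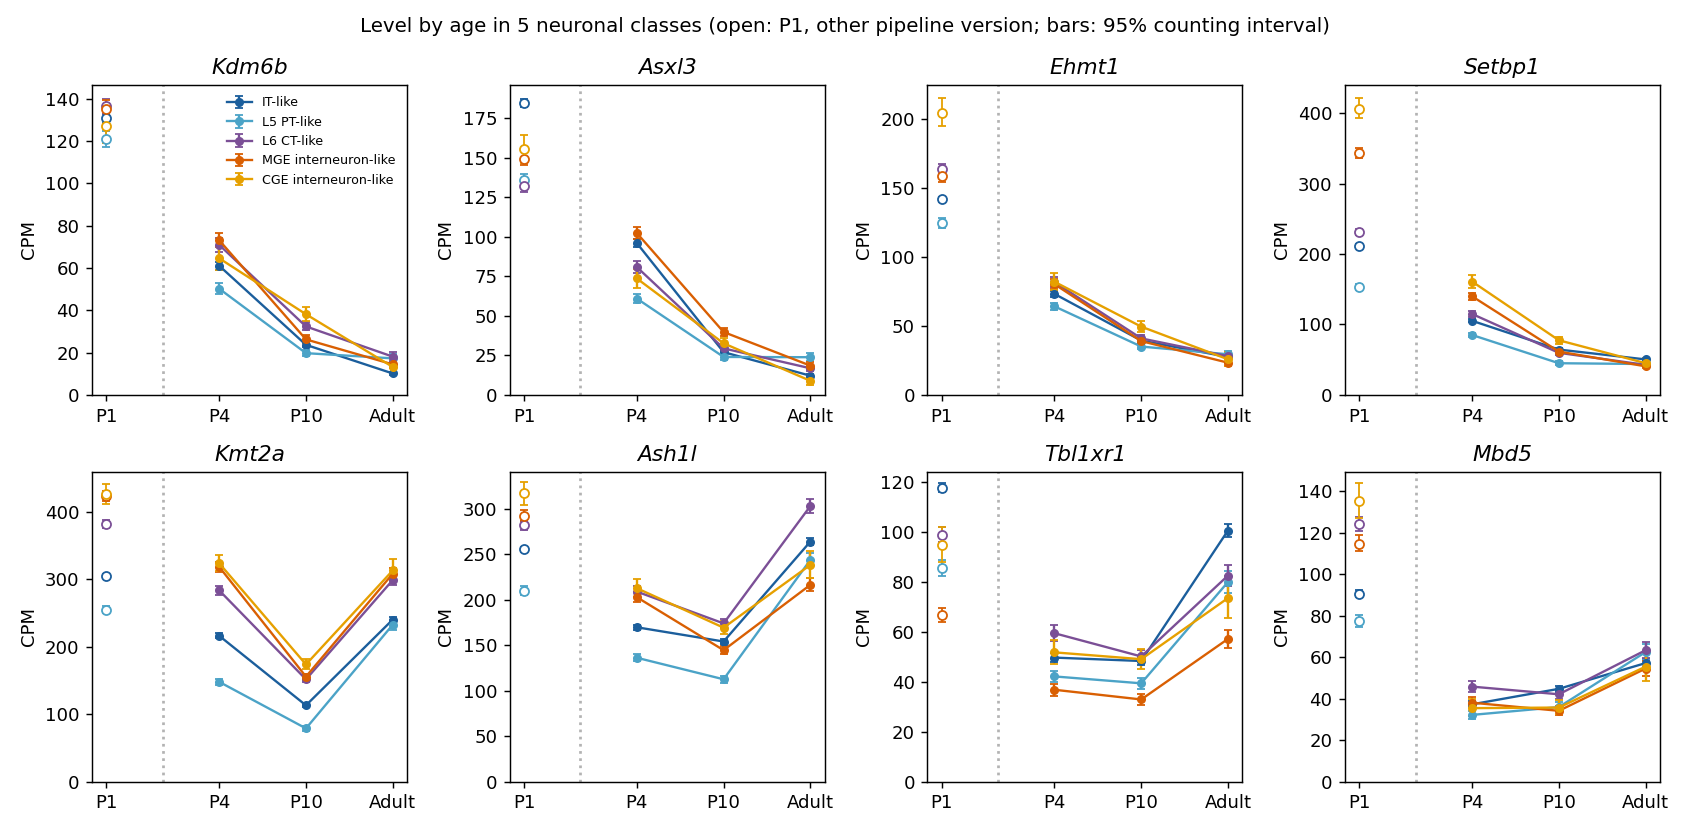
Level in CPM (linear axis from 0) of 8 members in 5 neuronal classes at P1, P4, P10 and adult, with 1 library per age and bars for the 95% counting interval; open points set off by a dotted line are P1, from another pipeline version. Kdm6b, Asxl3, Ehmt1 and Setbp1 in the upper row were lower in adult than at P4 in every class drawn, Kmt2a was lowest at P10 in each, and Ash1l, Tbl1xr1 and Mbd5 were higher in adult than at P4.

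By class, the members at least 2-fold lower from P4 to adult numbered 3 in L5 PT-like (all genes 15.2%), 7 in L6 CT-like (18.6%), 11 in MGE interneuron-like (17.6%) and 9 in CGE interneuron-like cells (15.5%), and 0 were at least 2-fold higher in any of them (all genes 14.5%, 13%, 13.2% and 12.1% in the same order). In L5 PT-like cells the sums at P4 and in adult were 91.7 and 335 CPM for astrocyte, 62 and 257 CPM for oligodendrocyte and 217 and 10.2 CPM for OPC markers, and their part was not tested. Asxl3 and Kdm6b had the 2 largest losses from P4 to adult in each of the 5 neuronal classes. In L5 PT-like cells Kdm6b was at 50.2, 19.7 and 17.3 CPM (log2 ratio of adult to P4 -1.54, -1.72 to -1.36) and Asxl3 at 60.9, 24 and 23.8 CPM (-1.35, -1.51 to -1.20). Both changed little after P10 in this class. L6 CT-like cells had Asxl3 at 80.8, 29.4 and 16.8 CPM (-2.26) and Kdm6b at 70.9, 32.4 and 18.1 CPM (-1.97). In MGE interneuron-like cells the ratios were -2.47 for Asxl3 (102, 39.7 and 18.5 CPM) and -2.34 for Kdm6b (73.1, 26.2 and 14.4 CPM), and in CGE interneuron-like cells -3.05 (73.6, 32.6 and 8.91 CPM) and -2.29 (64.6, 38.1 and 13.2 CPM). The smallest of these losses was that of Asxl3 in L5 PT-like cells, at 2.55-fold.

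Tbl1xr1 was among the 2 largest gains in each neuronal class. It had log2 ratios of 0.47 (L6 CT-like) to 1.02 (IT-like). Mbd5 was the other in L5 PT-like (32.2 to 62.4 CPM, 0.96), MGE (38 to 54.5 CPM, 0.52) and CGE interneuron-like cells (35.4 to 55.4 CPM, 0.65), and Ash1l in IT-like and L6 CT-like cells (209 to 303 CPM, 0.54). In the inhibitory-like class as a whole, 8 members were at least 2-fold lower (all genes 16.4%) and 0 at least 2-fold higher (all genes 12.9%), with a median log2 ratio of -0.66 against -0.15 for all genes. This class itself differed between the ages, with inhibitory markers at 1937 CPM at P4 and 6878 CPM in adult. At the same ages IT markers summed to 1433 and 650.0 CPM and astrocyte markers to 136 and 498 CPM. OPC markers summed to 215 and 35.5 CPM and oligodendrocyte markers to 54.1 and 199.6 CPM. The part of these shifts was not tested. From P4 to P10, 36 of 36 members were lower there (all genes 57.7%). Asxl3 (95 to 16.2 CPM) and Kdm6b (71 to 14.7 CPM) again lost most, and Tbl1xr1 (40.6 to 61.6 CPM) and Mbd5 (37.4 to 54.4 CPM) gained most.

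Some changes differed in size between neuronal classes, as the following 3 genes show, which were chosen after their values were seen. Setbp1 was 3.56-fold lower in inhibitory-like cells (145 to 40.8 CPM, log2 ratio -1.83) and 1.94-fold lower in L5 PT-like cells (85 to 43.8 CPM, -0.96). Bcl11a was nearly level in L6 CT-like cells, at 175, 193 and 167 CPM (-0.07), while it went from 179.7 to 47.9 CPM in CGE interneuron-like cells (-1.91). Auts2 recovered after P10 in IT-like cells, whereas in L6 CT-like cells it was at 159, 45.8 and 43.3 CPM (-1.88). With the IT-like class of the finer clustering named above, the Auts2 ratios from P4 to adult of both classes were nearly equal. Differences between these classes were not tested.

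Glial cells held RNA of genes abundant in neurons, and its amount differed between ages. The level of 15 abundant neuronal genes in astrocyte-like cells was, in the median, 50.2% of their IT-like level at P4 (range over genes 40.3% to 128%), 18.9% at P10 and 23.4% in adult (13.5% to 99.9%), and in microglia-like cells 43.8%, 19.3% and 17.8%. Removing cells marked as doublets by Scrublet (320 of 1426 astrocyte-like and 19 of 78 microglia-like cells at P4) lowered the P4 values to 24.7% and 17.9%. In OPC-like cells the same values were 52.8%, 24.8% and 49.4%, and without marked cells 32.8% at P4 and 29.7% in adult. The astrocyte-like and microglia-like cells of P4 thus held more RNA of these genes than those of the adult before that step, while the OPC-like cells held nearly as much in adult. How much of it the glial cells made themselves was not measured. None of the 15 genes was at 0, and the larger glial changes between P4 and adult are given with and without the marked cells.

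In astrocyte-like cells, 7 of 37 members were at least 2-fold lower from P4 to adult (all genes 17.4%) and 0 at least 2-fold higher (all genes 10.9%), with a median log2 ratio of -0.29 against -0.23. The class itself differed between the ages, with astrocyte markers at 11958 CPM at P4 and 41886 CPM in adult and OPC markers at 1091 and 307 CPM, and the part of this was not tested. Without marked cells 3 were lower (all genes 13%), namely Asxl3, Setbp1 and Kdm6b. Asxl3 was at 44.4, 5.90 and 3.20 CPM (log2 ratio -3.79, and -3.04 from 26.4 and 3.22 CPM without marked cells). Setbp1 was at 141, 87.5 and 44.1 CPM (-1.68, and -1.88 without marked cells), and Kdm6b at 64.2, 59.3 and 25.2 CPM (-1.35 and -1.35). The levels of these 3 genes were therefore lower in adult astrocyte-like cells either way. Without marked cells the 15 neuronal genes still stood, in the median, at 24.7% of their IT-like level at P4 and 23.2% in adult. Asxl3 itself was at 95.9 and 12.1 CPM in IT-like cells at these ages. The part of neuronal RNA in its astrocyte-like loss was not tested. Bcl11a (ratio -2.02, 130.4 to 32.2 CPM) had a ratio of -0.99 without marked cells, Myt1l (323 to 91 CPM) went from -1.83 to -0.57, and Auts2 changed sign, from -0.42 to 0.36. With all cells kept, the largest gains were those of Kmt2c (232, 303 and 375 CPM, 0.69 and 0.29 without marked cells) and Kmt2a (259, 224 and 357 CPM, 0.46 and 0.34), while without marked cells Auts2, Kmt2a and Mbd5 (0.30) came before Kmt2c. From P10 to adult Kmt2a was higher in all 4 glial classes, by log2 ratios of 0.17 to 0.67. For astrocyte-like cells from P4 to adult, median-of-ratios scaling put the centre of the genes of at least 50 CPM at -0.19. Ratios of that contrast taken against it are higher by that much.

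In microglia-like cells, of which the P4 library had only 78, 7 of 37 members were at least 2-fold lower (all genes 19.1%) and 0 higher (all genes 11%). Microglia markers summed to 14099.7 CPM at P4 and 37258 CPM in adult. At the same ages IT markers summed to 1649 and 654 CPM and astrocyte markers to 240 and 691 CPM. OPC markers summed to 320 and 38.2 CPM and oligodendrocyte markers to 90.4 and 628 CPM. The part of these shifts was not tested either. Without marked cells 3 were lower (Asxl3, Setbp1 and Kdm6b, all genes 14.7%) and 1 was higher (Kmt5b, all genes 12.6%). Asxl3 went from 40.5 to 4.93 CPM (-3.04, and -2.01 with an interval of -3.25 to -0.62 without marked cells), and Bcl11a from 115 to 28.4 CPM (-2.02 and -0.48). Without marked cells Asxl3 was at 20.3 CPM at P4 and 5.04 CPM in adult. The 15 neuronal genes then stood at 17.9% and 17.6% of their IT-like level in the median, and their part in the Asxl3 loss was not tested. With all cells kept Chd7 had the largest gain, with 55.3, 72.6 and 104 CPM (0.91 and 0.21, -0.28 to 0.74, without marked cells), and Ash1l the next, with 136 and 221 CPM (0.70 and 0.73). Kmt5b was at 67.5, 84.4 and 107 CPM (0.66, 0.23 to 1.11). Without marked cells, which left 59 cells at P4, its ratio was 1.15 (0.49 to 1.90), the largest gain in that setting. Kmt5b was lower in adult IT-like cells.

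With all cells kept, OPC-like cells lost most in Bcl11a (108, 43.6 and 41.4 CPM, log2 ratio -1.38, and -0.83 without marked cells) and Chd7 (179, 201 and 83.2 CPM, -1.10 and -1.17). Without marked cells Chd7 was at 251 CPM at P4 and 112 CPM in adult, the largest loss. Chd3 came next in that setting (186 to 98.1 CPM, -0.92), before Bcl11a. Mbd5 (42.6 to 57.8 CPM, 0.44 and 0.51) and Tbl1xr1 (71.5 to 91.9 CPM, 0.36 and 0.18) gained most. The interval of Tbl1xr1 without marked cells lay on both sides of no change (-0.08 to 0.44). In this class 3 members were at least 2-fold lower (all genes 8.77%) and 0 higher (all genes 11%), and without marked cells 1 was lower, namely Chd7 (all genes 7.98%). The sums of markers in these cells at P4 and in adult were 8730.4 and 12358 CPM for OPC, 843 and 2411 CPM for astrocyte, 1245 and 1237 CPM for oligodendrocyte and 2174 and 1338 CPM for IT markers, and their part was not tested. Oligodendrocyte-like cells were named at P10 and in adult only. There Chd3 was at 386 CPM (359.6 to 414) and 41.9 CPM (36.4 to 48), a log2 ratio of -3.20 (-3.43 to -2.98), and Kdm6b at 151 CPM (134 to 168) and 21.8 CPM (17.8 to 26.3) (-2.79, -3.12 to -2.47). The class itself differed between the ages, with oligodendrocyte markers summing to 33436 CPM at P10 and 76346 CPM in adult and OPC markers to 7867 and 2198 CPM, and the part of this in both losses was not tested. Without marked cells Chd3 was at 431 and 39.4 CPM and Kdm6b at 166 and 21.7 CPM, so both losses were of like size. Foxp1 (24.1 to 52.9 CPM, 1.14) and Kmt2c (157 to 216 CPM, 0.45) had the largest gains, at 20.7 to 50.6 CPM and 136 to 214 CPM without marked cells. The neuronal genes stood at 16.6% and 14.6% of the IT-like level in these cells.

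**Figure D2:**
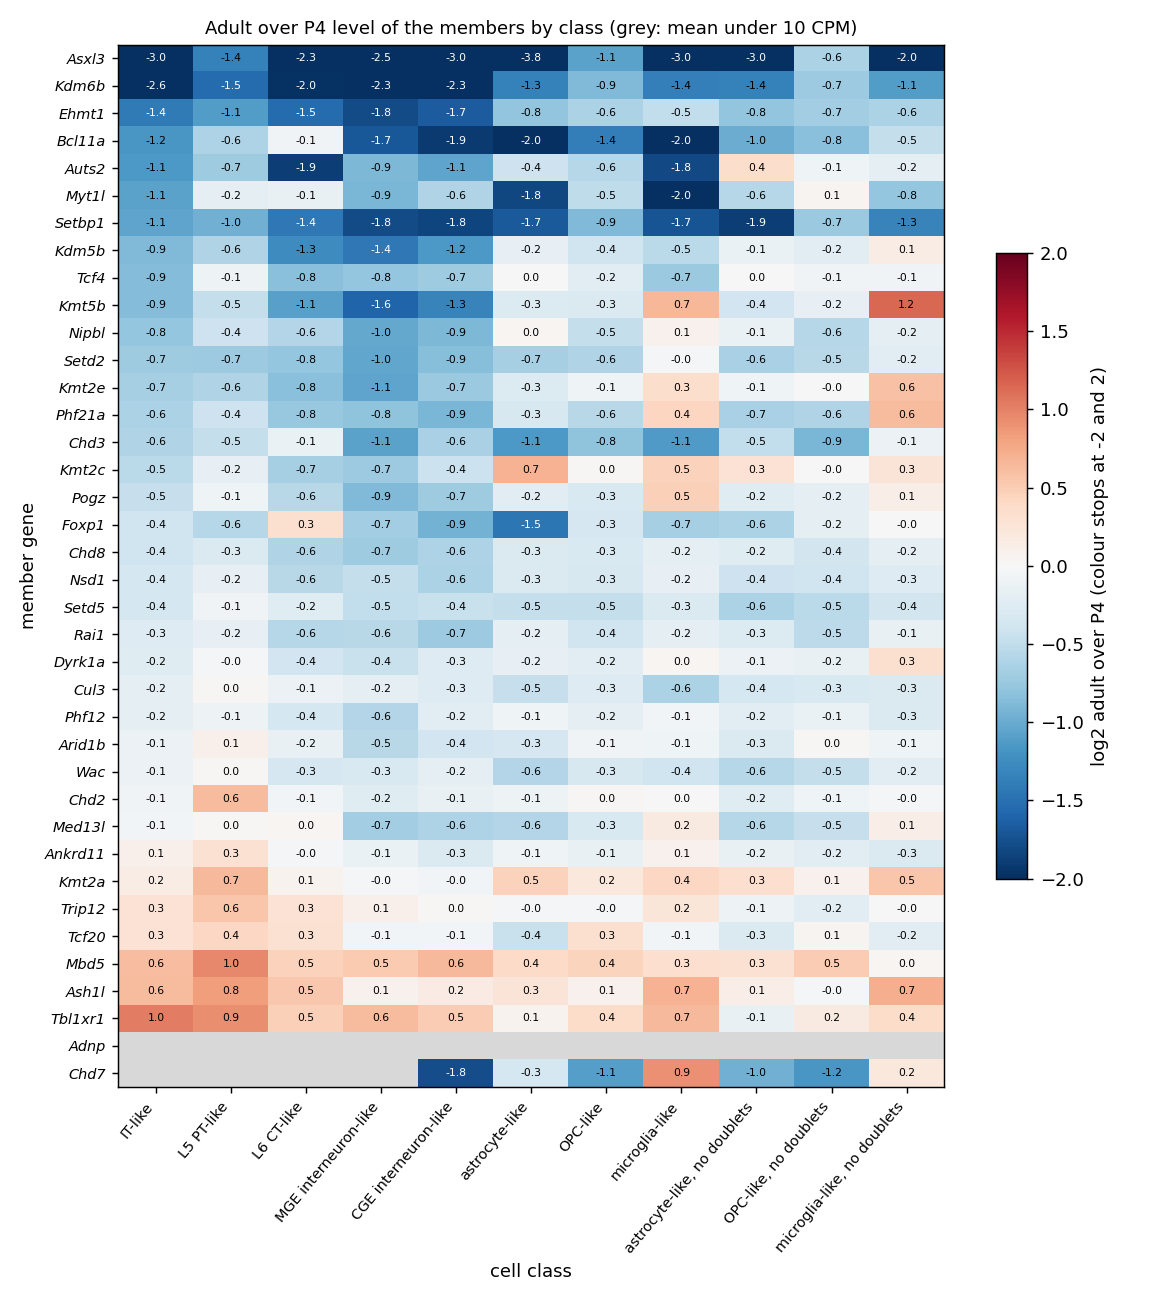
Log2 ratio of adult to P4 (colour and printed value, colour ending at -2 and 2) of each member in 8 cell classes, followed by the 3 glial classes without Scrublet-marked cells, with 1 library per age; grey marks a mean under 10 CPM. Asxl3 and Kdm6b were the darkest rows in neurons, and several losses in astrocyte-like and microglia-like cells, such as those of Bcl11a and Myt1l, were smaller without the marked cells.

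Across classes, Chd7 was the most restricted member. In the adult library it was at 104 CPM in microglia-like, 83.2 in OPC-like, 62 in oligodendrocyte-like and 40.7 in astrocyte-like cells, against 8.43 in CGE interneuron-like and 1.82 in IT-like cells, and 8 UMIs in L5 PT-like cells gave 0.48 CPM. Without Scrublet-marked cells, adult OPC-like cells stood above microglia-like cells, at 112 and 106 CPM. At P10 the highest class was OPC-like with 201 CPM. Among neurons it was found mostly in CGE interneuron-like cells, with 28.8, 8.76 and 8.43 CPM at P4, P10 and adult against 2.52, 1.38 and 1.86 CPM in MGE interneuron-like cells. With every P4 cell thinned to 2000 UMIs, 35.8% of OPC-like cells had a Chd7 UMI (32.4 to 39.3%, exact binomial), 13.7% of astrocyte-like, 7.64% of CGE interneuron-like and 0.45% of IT-like cells (0.282 to 0.68%). Before thinning the shares were 63%, 25.4%, 18.9% and 3.05%, at median depths of 5249, 4758, 7041 and 13494 UMIs, and cells under 2000 UMIs (12, 63, 0 and 23) were left out. Of the classes listed for this share, the IT-like class had the deepest cells and the smallest share. How much of each share came from free RNA was not measured.

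**Figure D3:**
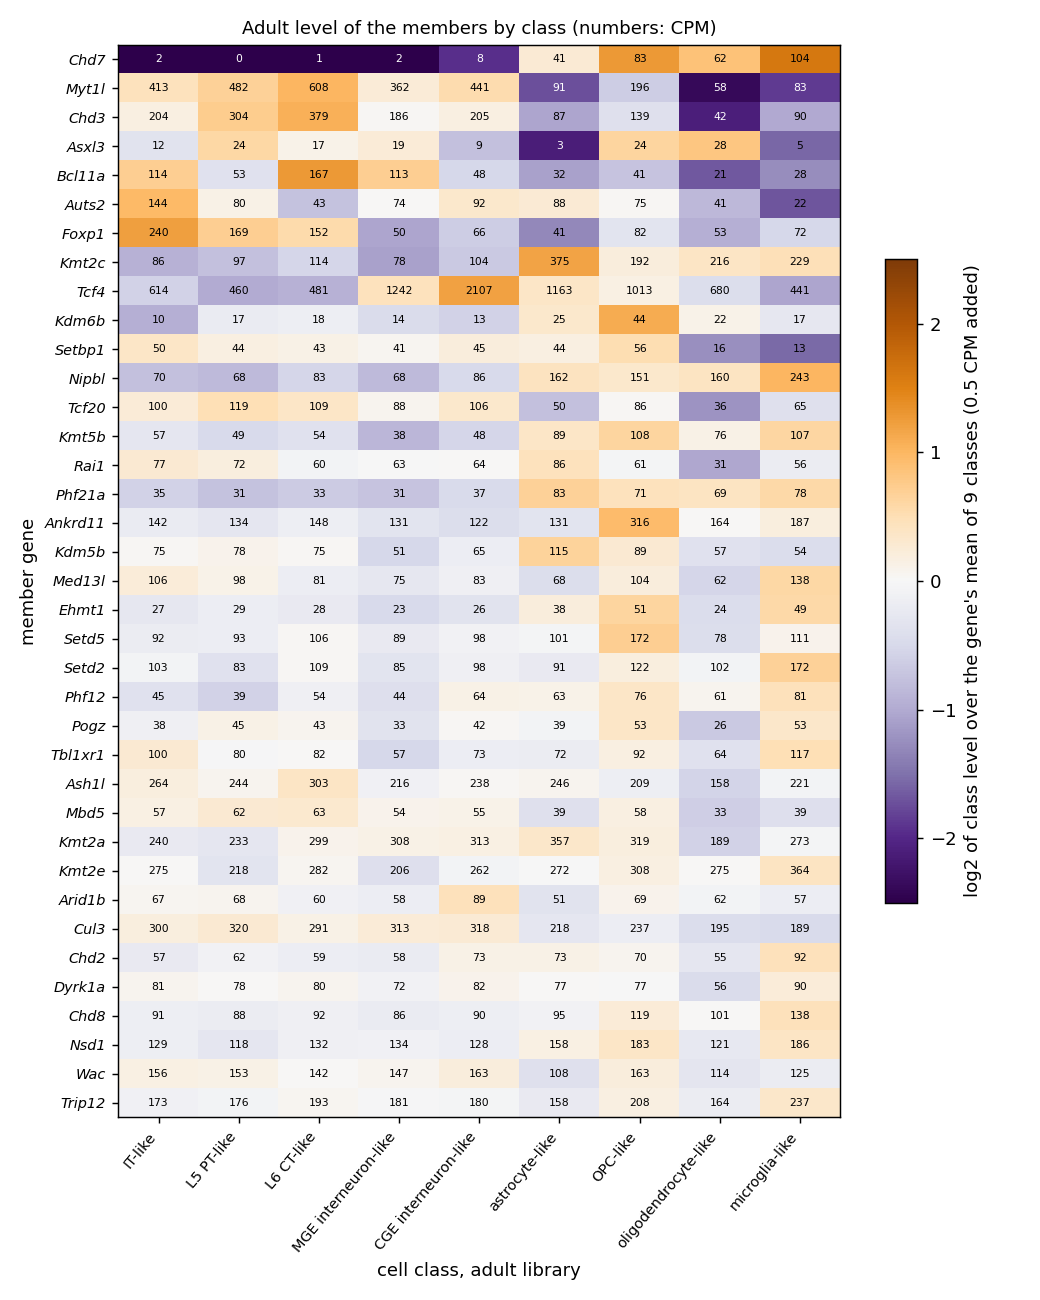
Adult level in CPM (printed values) of 37 members in 9 classes of the adult library, coloured by the log2 ratio of the class to the gene's mean over the 9 classes after adding 0.5 CPM, with 1 library and no replicate; members are ordered by their range over classes. With all cells kept, Chd7 was highest in microglia-like cells and lowest in L5 PT-like cells, and Myt1l, Chd3 and Bcl11a were lowest in oligodendrocyte-like cells. Without Scrublet-marked cells Chd7 was higher in OPC-like than in microglia-like cells.

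After Chd7, the adult ranges were widest for Myt1l, Chd3, Asxl3 and Bcl11a. Myt1l ran from 608 CPM in L6 CT-like to 58 CPM in oligodendrocyte-like cells, Chd3 from 379 to 41.9 CPM and Bcl11a from 167 to 21.4 CPM between the same classes. All 3 were thus highest in neurons of the adult library. With all cells kept, Asxl3 was highest in oligodendrocyte-like cells, at 27.7 CPM (23.2 to 32.7), and lowest in astrocyte-like cells, at 3.20 CPM (1.87 to 5.13). Without Scrublet-marked cells adult OPC-like cells were at 30.2 CPM, within that oligodendrocyte-like interval, so its highest class was not settled. At P10, Foxp1 (233 CPM in IT-like and 24.1 in oligodendrocyte-like cells), Myt1l (586 and 68.8 CPM), Kdm6b (151 in oligodendrocyte-like and 19.7 CPM in L5 PT-like cells) and Asxl3 (42.6 in OPC-like and 5.90 CPM in astrocyte-like cells) followed Chd7. The highest class of Kdm6b was thus a glial one at P10. Tcf4, chosen after its values were seen, was highest in CGE interneuron-like cells at every age, with 3454, 2515 and 2107 CPM at P4, P10 and adult.

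Set against IT-like cells, adult astrocyte-like cells had 5 members at least 2-fold lower (all genes 22%) and 5 at least 2-fold higher (all genes 21.9%), and adult microglia-like cells 6 lower (all genes 26.5%) and 4 higher (all genes 26.7%). These shares were below those of all genes. Against median-of-ratios scaling, whose centre lay at -0.35 and -0.25 in these contrasts, 3 were lower and 7 higher in astrocyte-like cells (all genes 16.4% and 27.9%), and 5 were lower and 7 higher in microglia-like cells (all genes 23% and 31.7%). The next 3 genes were chosen after their values were seen. Kmt2c had log2 ratios of astrocyte-like to IT-like cells of 0.83, 0.89, 1.99 and 2.12 in order of age from P1. Nipbl had ratios of microglia-like to IT-like cells of 0.56, 0.92, 1.72 and 1.79 in the same order. For both genes the gap was widest in the 2 later libraries. Set against the same IT-like levels, glia without marked cells gave 1.29 for Kmt2c and 1.21 for Nipbl at P4, and 2.12 and 1.79 in adult. Ankrd11 was higher in OPC-like than in IT-like cells in all 4 libraries, by log2 ratios of 1.35, 1.41, 1.83 and 1.16. With all cells kept it stood at 349.7, 436 and 316 CPM in OPC-like cells at P4, P10 and adult. Without marked cells it was at 441 CPM at P4 and 375 CPM in adult. On the neuronal side, Foxp1, Myt1l, Bcl11a and Chd3 were lower in astrocyte-like than in IT-like cells in all 4 libraries.

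Levels at P1 were higher than at P4 for 34 of 36 members in IT-like cells (all genes 55.4% lower at P4), with a median log2 ratio of P4 to P1 of -0.61 against -0.08 for all genes. At least 2-fold lower at P4 were 5 (all genes 7.56%) and at least 2-fold higher 0 (all genes 4.80%), but the count lower was 2 at Leiden resolution 1.0 (all genes 4.85%) and 3 with the mean of per-cell CPM (all genes 7.05%). Auts2 had 865 CPM (859 to 869.8) at P1 and 317 CPM at P4 (-1.45), Mbd5 90.4 CPM (88.7 to 92.1) and 37.3 CPM (-1.28), and Tbl1xr1 118 CPM (116 to 119.6) and 49.6 CPM (-1.25). Of these, Mbd5 and Tbl1xr1 were the members that gained again after P4. Foxp1 (269 to 317 CPM, 0.24) and Cul3 (315 to 341 CPM, 0.11) were the 2 members higher at P4. The other members with the largest later losses were already lower at P4 than at P1, with Asxl3 at 184, Kdm6b at 131, Ehmt1 at 141 and Bcl11a at 360.3 CPM at P1.

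The P1 table differs from the others in the pipeline version of its header, which also names enhanced beads and the counting of reads from introns, 2 settings that the other headers do not give. Over all genes, the ratio of P4 to P1 in IT-like cells went with the length of the gene: the median log2 ratio was 0.18 for genes under 10 kb, -0.02 from 10 to 30 kb, -0.20 from 30 to 100 kb, -0.32 from 100 to 300 kb and -0.67 from 300 kb. The members spanned 15.2 kb (Kdm6b) to 1106 kb (Auts2). Within the 14 members of 100 to 300 kb the median was -0.74, and within the 7 longest -0.82. Pipeline and age cannot be told apart in this step. From P4 to adult the medians of all genes ran the other way, from -0.17 under 10 kb to 0.26 from 300 kb, while the 7 longest members had a median of -0.87.

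**Figure D4:**
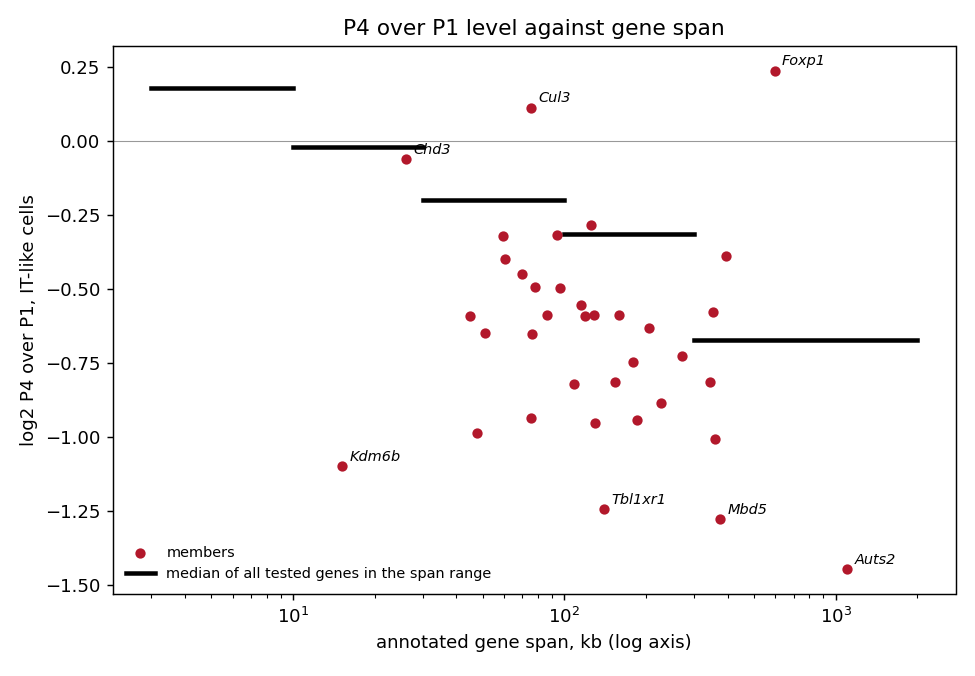
Log2 ratio of P4 to P1 in IT-like cells against the annotated gene length in kb (log axis), with members as points and the median of all genes in each length range as a black bar. The medians ran from 0.18 under 10 kb to -0.67 from 300 kb, and most members lay below the bar of their range.

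Some close relatives of the members took other courses. Of 26 pairs of a member and a paralog, 20 had both genes above 10 CPM, and those that differed most in IT-like cells from P4 to adult were Asxl3 with Asxl2 (32.7 to 34.6 CPM, log2 ratio 0.08 against -2.98) and with Asxl1 (67.5 to 52.5 CPM, -0.36), and Kdm6b with the X-linked H3K27 demethylase gene Kdm6a (31.6 to 40.8 CPM, 0.37 against -2.59). Bcl11b, the paralog of Bcl11a that marks subcerebral projection neurons, was at 18.4 and 26.6 CPM (0.53 against -1.17). For the corepressor pair the direction was the opposite, since Tbl1x was at 176 and 114 CPM (-0.62) while Tbl1xr1 gained. Differences of log2 ratios between a member and its paralog were -3.07 for Asxl3 and Asxl2, -2.96 for Kdm6b and Kdm6a, -2.62 for Asxl3 and Asxl1, -1.70 for Bcl11a and Bcl11b and 1.64 for Tbl1xr1 and Tbl1x. How the counting treated reads shared by relatives is not given in the sources used here.

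**Figure D5:**
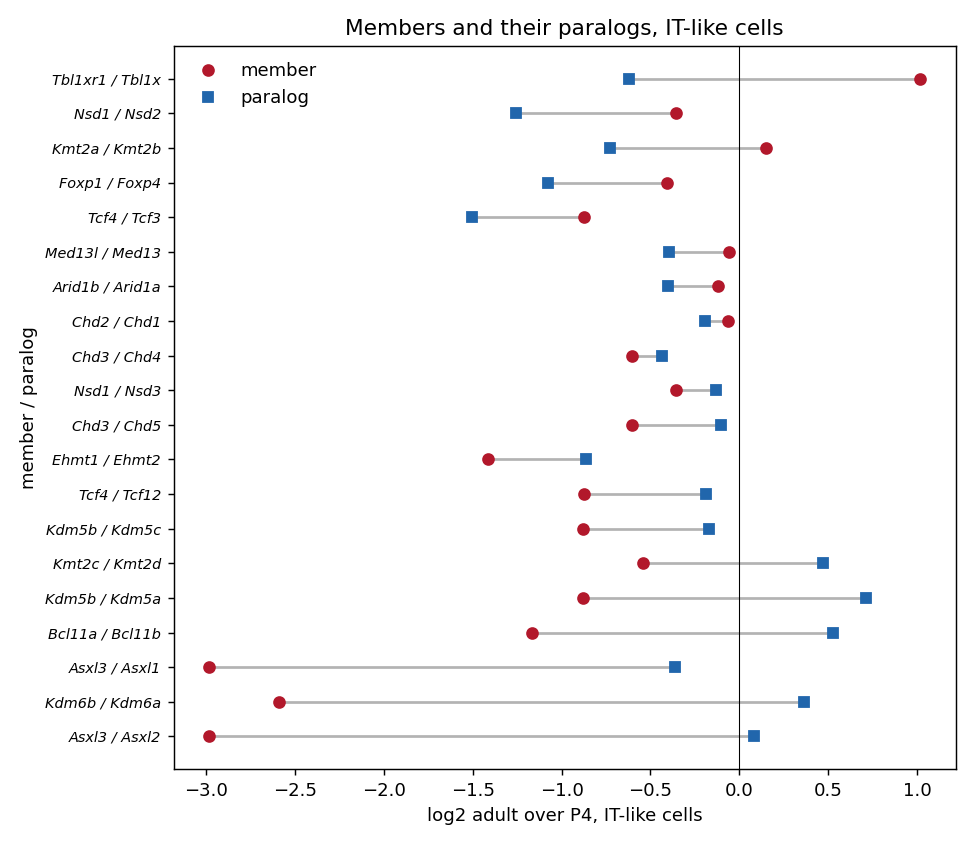
Log2 ratio of adult to P4 in IT-like cells for members (circles) and their paralogs (squares), joined by a line for each of the 20 pairs in which both genes had at least 10 CPM, with 1 library per age. The longest lines were those of Asxl3 with Asxl2, Kdm6b with Kdm6a and Asxl3 with Asxl1.

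Other chromatin genes of the same complexes, 133 in 8 lists, gave a frame for the members. Of the 121 above 10 CPM from P4 to adult in IT-like cells, 28 were at least 2-fold lower and 6 at least 2-fold higher (all genes as above), with a median log2 ratio of -0.41, close to that of the members. The BAF complex list had 8 of 22 lower and 1 higher with a median of -0.79, the list of the CHD family and NuRD 4 of 16 lower (-0.31), COMPASS 3 of 12 lower (-0.28), and Polycomb 2 of 17 lower and 3 higher (-0.20). Corepressors had 2 of 12 lower (-0.60), Mediator and cohesin 1 of 19 lower and 1 higher (-0.38), the other histone methyltransferases and demethylases 6 of 19 lower and 1 higher (-0.30), and the paralogous sequence-specific factors 2 of 4 lower (-0.63). The largest losses were those of Ezh2, the H3K27 methyltransferase gene (43.5 to 2.65 CPM, -4.04, -4.29 to -3.80), the demethylase gene Kdm2b (100.4 to 10.1 CPM, -3.31) and the BAF subunit gene Bcl7c (59.4 to 10.8 CPM, -2.46). The largest gains were those of the Polycomb genes Cbx7 (2.95 to 30.2 CPM, 3.35) and Pcgf5 (5.09 to 32.4 CPM, 2.67) and the demethylase gene Kdm7a (16.2 to 89 CPM, 2.46). Ezh2, which writes the mark that KDM6B removes, and Kdm6b itself were thus both among the genes with the largest losses.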

How the data were processed

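Single-cell libraries of mouse PFC at P1, P4, P10 and adult (1 each) were analysed from the UMI counts per cell and gene that the authors deposited, made with the BD Rhapsody WTA pipeline (version 1.11 at P1 and 1.8 otherwise, per the file headers) on GRCm38 with GENCODE M19. All counts were whole numbers, 200198548 to 340724049 UMIs per library. Cells with at least 1000 UMIs, 1000 genes and at most 15% mitochondrial UMIs were kept and clustered per library with scanpy 1.11.5 (2000 variable genes, 30 components, 20 neighbours, Leiden 0.5). Clusters were named from marker lists, with score thresholds set after the clusters were seen. Scrublet-marked cells were kept, and removed in an alternative. UMIs were summed per class, and ratios carry exact conditional binomial intervals (95%). Genes with a mean of at least 10 CPM over both sides were called at a ratio of at least 2, with no test, since each age has 1 library. The ratio step was checked on simulated data. Named are the largest changes per class, the 5 widest class ranges, the 5 paralog pairs that differ most and the 3 largest companion changes each way. The members, lists and paralogs were chosen with earlier results of these data known. Gene spans and exon overlaps come from GENCODE M21, promoters from RefSeq (GRCm38.p6). Barcodes shared between libraries numbered 12 to 368 per pair. Alternatives changed the cell filter, doublets, clustering, denominator, scaling, cell weights and minimum level.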

Additional observations from a re-analysis of the deposited data

Results flagged for a closer look

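Some members had ratios from P4 to adult that were opposite in IT-like and in glial cells of the same libraries. Kmt2c had a log2 ratio of -0.54 in IT-like cells and of 0.69 in astrocyte-like cells (0.29 without Scrublet-marked cells). In microglia-like cells it was 0.47, and 0.26 without marked cells, with an interval on both sides of no change (-0.08 to 0.62). Kmt2e was at -0.67 in IT-like and 0.35 in microglia-like cells (0.59 without marked cells), and Kmt5b at -0.87 and 0.66 (1.15, 0.49 to 1.90). Each class is 1 library per age, so these differences were not tested.

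In data that no comparison used, the P1 library held 4 Y-linked genes at a sum of 120.4 CPM, against 0.126 to 0.19 CPM in the other 3 libraries, while the methods give female mice at every age. Its part in the P1 levels of the members was not tested.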

How the results depend on the processing

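Of the recomputed counts and medians of members, 141 stayed within their limits and 16 moved. With Leiden resolution 1.0, which leaves 1 P4 cluster as IT-like, the count of members at least 2-fold lower in IT-like cells was 7 from P4 to P10 and 2 from P1 to P4, the count at least 2-fold higher was 1 up to P10 (from P4) and 0 after P10, the 1 member higher from P4 to adult was Foxp1 in place of Tbl1xr1 (0.59), Bcl11a and Auts2 moved to -1.82 and -1.86, and the median from P4 to adult was -0.62 in IT-like cells, with 4 lower in astrocyte-like cells. OPC-like cells were not named at P4 there. Without Scrublet-marked cells, 3 members were lower from P4 to adult in astrocyte-like and 3 in microglia-like cells, where 1 was higher (Kmt5b), and under the stricter cell filter another 1 was (Chd7, log2 ratio 1.05). With the mean of per-cell CPM, 0 members were higher from P4 to adult and 3 lower from P1 to P4 in IT-like cells, and 0 were higher with the P4 cluster led by Ntf3 and Aldh1a3 included, which was chosen after seeing the data. Median-of-ratios scaling sets to 0 the median of genes of at least 50 CPM, which lay from P4 to adult at -0.06 in IT-like and -0.19 in astrocyte-like cells, and in adult at -0.35 between IT-like and astrocyte-like and -0.25 between IT-like and microglia-like cells, which took the astrocyte-like median to -0.10, the adult count lower in astrocyte-like than IT-like cells to 3 and the count higher in microglia-like cells to 7. The cause was not tested for the other settings. Setbp1 in IT-like cells was no longer 2-fold lower with median-of-ratios scaling. Of single members, Myt1l in astrocyte-like cells reversed to 0.0027 at Leiden 1.0, and Foxp1 (1.95), Kmt2a (-0.18), Tcf20 (-0.07) and Ankrd11 (-0.12) in IT-like cells changed sign at Leiden 1.0. From P4 to adult, 6 of 37 members changed sign in a setting other than median-of-ratios scaling in astrocyte-like cells. The same held for 6 of 37 in microglia-like cells and for 1 of 36, Trip12, in inhibitory-like cells. That scaling, which shifts all genes alike, was the only setting behind 6, 2 and 1 more and behind Med13l in IT-like cells. In all, 230 of the recomputed ratios of single members moved beyond their counting interval. Asxl3 and Kdm6b kept log2 ratios of -3.22 to -2.53 in IT-like cells. No paired analysis was possible because each age has 1 library. Few UMIs lay behind Adnp and behind Chd7 in most neuronal classes, and few cells behind the P4 microglia-like class.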
